A study of Mus musculus with 3 samples.

Results

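The 10 genes described here belong to the tumour necrosis factor and NF-kB circuit and were measured in single-cell libraries of mouse ear epidermis: Tnf, Nfkb1, Nfkb2, Rel, Relb, Nfkbia, Nfkbie, Nfkbiz, Tnfaip3 and Traf1. They were chosen by symbol, and all 10 were found among the 34289 genes of the feature lists. Langerhans cells (LCs), the antigen-presenting cells of the epidermis, had been enriched magnetically from male Cd1 mice after trypsin had loosened the epidermis at body temperature, and 1 Chromium 3' library was made per group. The untreated mice had received hair remover (Nair) only. The croton oil mice had been given croton oil, which irritates skin, together with acetone and olive oil, and the microneedle mice had been punched multiple times with a microneedle array. Both treated groups were collected 48 h after their first treatment. The labels used here give neither the number nor the age of the animals behind a library. With 1 library per group there is no replicate, so no difference between groups could be tested, and every interval below is a 95% interval of counting error alone.

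TNF is a cytokine that is made as a membrane-bound precursor and released by proteolysis. Its receptors activate NF-kB, a family of dimeric transcription factors. In the canonical branch, dimers built from the products of Nfkb1, Rela and Rel are held in the cytoplasm by inhibitor proteins and are freed when a kinase complex marks the inhibitors for destruction. In the noncanonical branch, receptors such as CD40 and the lymphotoxin receptor lead to processing of the Nfkb2 product, the partner of RelB. Many genes of the circuit are NF-kB targets themselves, among them the inhibitor genes Nfkbia and Nfkbie and the gene of the ubiquitin-editing enzyme Tnfaip3, so that signalling feeds back on itself. In LCs, TNF is known as a survival factor and as a cue for leaving the epidermis.

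Promoter sequences from RefSeq (build GRCm38.p6) were available for 7 of the 10 genes, with 10 start sites. The submitters' processing notes name build GRCm39 for the counts, so these coordinates belong to the RefSeq table alone. Windows of 300 bases, 250 of them before the start site, were searched on both strands for 3 kB-like patterns of 10 bases: GGG, any 2 bases and TTTCC; GGG, any 4 bases and TCC; and GGG, any 4 bases and CCC. A stretch can match more than 1 of them. At least 1 match stood in 9 of the 10 windows, belonging to 6 of the 7 genes. The windows of Nfkb2 start sites 2 and 3 overlap and share a matched stretch, which counts in both. Over all 32851 windows of the table the shares were 1.63%, 19.2% and 11.9% in the same order, and 27.2% for any of the 3. The 250 bases before the start are printed for 4 genes: Tnf, which was lower in both treated libraries; Traf1, which was higher in both; Nfkbia, which stood apart after croton oil; and Nfkb2, a noncanonical subunit gene (the first of its 3 start sites). Capitals mark the matches.
Tnf, chr17:35202008-35202257, minus strand: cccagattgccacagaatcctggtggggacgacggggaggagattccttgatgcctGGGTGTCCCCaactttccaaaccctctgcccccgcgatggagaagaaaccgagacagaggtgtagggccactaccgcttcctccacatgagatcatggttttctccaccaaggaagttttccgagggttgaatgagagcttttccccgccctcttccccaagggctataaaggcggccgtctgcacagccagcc
Traf1, chr2:34961773-34962022, minus strand: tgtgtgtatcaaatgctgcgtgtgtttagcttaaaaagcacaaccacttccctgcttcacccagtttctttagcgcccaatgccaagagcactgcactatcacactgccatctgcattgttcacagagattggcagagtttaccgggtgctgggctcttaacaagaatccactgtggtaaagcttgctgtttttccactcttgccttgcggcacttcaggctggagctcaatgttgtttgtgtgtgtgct
Nfkbia, chr12:55492648-55492897, minus strand: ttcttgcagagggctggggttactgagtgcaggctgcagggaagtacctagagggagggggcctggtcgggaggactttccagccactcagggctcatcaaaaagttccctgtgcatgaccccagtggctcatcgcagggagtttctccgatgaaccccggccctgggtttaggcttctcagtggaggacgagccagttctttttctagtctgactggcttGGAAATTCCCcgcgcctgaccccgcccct
Nfkb2, chr19:46304487-46304736, plus strand: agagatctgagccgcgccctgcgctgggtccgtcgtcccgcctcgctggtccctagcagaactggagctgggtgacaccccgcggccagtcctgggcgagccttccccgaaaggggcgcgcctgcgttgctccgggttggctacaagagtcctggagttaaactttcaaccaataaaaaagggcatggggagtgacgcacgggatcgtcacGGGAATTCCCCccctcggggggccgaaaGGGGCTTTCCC
The Tnf window held 1 match, which began 194 bases before the start site, and the Nfkbia window 1 stretch 29 bases before it. The Nfkb2 window held 2 stretches close to the start. The Traf1 window held none of the 3 letter patterns. Matches are descriptions of letters, not binding sites. Nfkb1, Relb and Nfkbiz were not matched.

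Cells were pooled by the genes they carried. LCs were cells with at least 2% of their unique molecular identifiers (UMIs, 1 per captured molecule) from Cd74, H2-Aa, H2-Ab1 and H2-Eb1 and with at least 2 Epcam UMIs. They numbered 8652 in the untreated, 5920 in the croton oil and 5290 in the microneedle library, of 9054, 7626 and 6479 cells retained, with median depths of 11515, 12581 and 17346 UMIs. All 7 LC markers were above 20 CPM (UMIs per 1000000 UMIs of the pool) in each library. Of 7 monocyte and macrophage markers, C1qa and Adgre1 exceeded 20 CPM; the summed list stood at 328.7, 1656 and 698.4 CPM, of which C1qa gave 59.2, 1479 and 484.9 CPM. The 7 T cell markers summed to 3.08, 69.5 and 10.5 CPM. The 7 neutrophil markers summed to 161.0, 81.2 and 99.0 CPM, of which S100a8 gave 0.074, 22.4 and 9.14 CPM. The 8 keratinocyte markers summed to 216.6, 186.6 and 45.0 CPM, lowest in the microneedle LCs. Neutrophils (S100a8 and S100a9 at least 1% of UMIs, with Csf3r) numbered 0, 178 and 320, keratinocytes 162, 201 and 77. Between libraries, 32, 17 and 13 barcodes were shared for untreated with croton oil, untreated with microneedle and croton oil with microneedle.

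The LC gate left out most of the migrating cells of the treated libraries. Ccr7, the receptor that guides LCs to the lymph node, and Fscn1, an actin-bundling gene of migrating dendritic cells, were found together in 15, 668 and 153 cells, of which 10, 76 and 11 lay inside the gate. Outside it, 580 croton oil and 141 microneedle cells with at least 1 Ccr7 and 2 Fscn1 UMIs were retained as a pool of their own, chosen after the data had been seen. Their 4 gate genes made up a median of 0.264% and 0.123% of UMIs. All 5 migration markers were above 20 CPM, but these include Ccr7 and Fscn1, which had been used to pick the cells. They still carried Cd207, the gene of langerin, at 103.3 and 129.9 CPM, against 326.4 and 464.8 CPM in the gated LCs. They are called migratory cells outside the gate below, and Ccr7-positive LCs (19, 288 and 73 cells) are those inside it.

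Tnf was a well-expressed gene of untreated LCs and was more than 2-fold lower in the LCs of both treated libraries. Its level was 606.0 CPM (601.3 to 610.7) in untreated LCs, 267.4 CPM (263.8 to 271.0) after croton oil and 264.4 CPM (261.2 to 267.7) after microneedling. The log2 change, computed throughout as log2((CPM + 5)/(CPM + 5)), was -1.17 (-1.19 to -1.14) after croton oil and -1.18 (-1.20 to -1.16) after microneedling. The treated libraries differed by 0.016 (-0.010 to 0.041), which counting error does not separate at this scaling. The difference was -0.12 with every cell thinned to 3000 UMIs and 0.15 under trimmed-mean (TMM) scaling, so its size depends on the scaling, and its sign on the setting. Both changes are taken against the same untreated library. Tnf was the only gene of the 10 at least 2-fold lower in either comparison, where 5.48% of 6839 genes compared were lower after croton oil and 1.76% of 6703 after microneedling. The 14 compared genes of a list of immediate early and dissociation genes had median changes of -0.61 and -0.48 on the log2 scale, with Jun lower by more than 2-fold in both libraries and Fosb after croton oil. The median over all genes compared was -0.03 and 0.02. The part of the warm dissociation in the Tnf levels was not tested.

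Traf1, which encodes a receptor-associated adaptor that is itself an NF-kB target, was the only gene of the 10 at least 2-fold higher. It rose from 5.32 CPM (4.89 to 5.77) in untreated LCs to 44.9 CPM (43.4 to 46.3) after croton oil, a log2 change of 2.27 (2.16 to 2.39). After microneedling it stood at 23.6 CPM (22.6 to 24.5), a log2 change of 1.47 (1.36 to 1.58). Of all genes compared, 5.48% were at least 2-fold higher after croton oil and 3.91% after microneedling. With 1 gene of 10 past 2-fold in each direction, the counts of the set say little beside those backgrounds; the values of the single genes carry the description. Among Ccr7-negative LCs alone, the Traf1 change was 1.96 after croton oil and 1.43 after microneedling, and the Tnf change was -1.14 and -1.18.

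**Figure D1:**
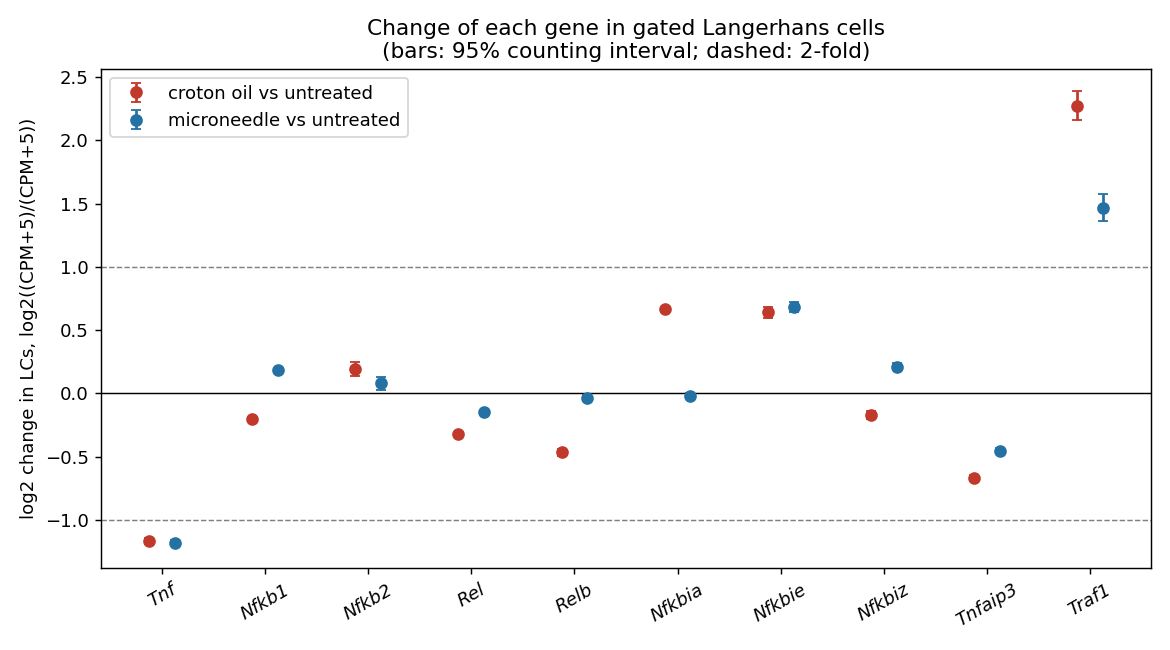
Log2 change of the 10 genes in gated LCs of the croton oil (red) and microneedle (blue) libraries against the untreated library. Bars are 95% counting intervals and dashed lines mark 2-fold; Tnf lies below the lower line and Traf1 above the upper line in both treatments, and the other genes lie between the lines.

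The genes of inhibitors and of the brake Tnfaip3 did not move as a block. Of these, Nfkbia and Nfkbie have products that hold NF-kB in the cytoplasm. Nfkbia, the gene of I-kappa-B alpha, stood at 533.0 CPM in untreated, 851.4 CPM after croton oil and 526.6 CPM in microneedle LCs. Its log2 change was 0.67 (0.65 to 0.69) after croton oil and -0.02 (-0.03 to -0.0004) after microneedling. The croton oil library was therefore the high one, and the other libraries lay together. Nfkbie, the gene of I-kappa-B epsilon, stood at 64.0, 102.6 and 105.9 CPM, with changes of 0.64 and 0.68, so here the treated libraries lay together. Nfkbiz, which encodes a nuclear member of the inhibitor family that co-regulates secondary response genes, stood at 181.9, 161.3 and 211.2 CPM, with changes of -0.17 and 0.21. Tnfaip3, whose product removes activating ubiquitin chains upstream of the kinase complex, stood at 483.1, 301.8 and 351.8 CPM, and its changes of -0.67 and -0.45 stayed short of 2-fold.

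Each of the subunit genes changed by less than 2-fold in both treatments. Rel was the most abundant of the 10 genes in LCs, at 1411 CPM in untreated, 1129 CPM after croton oil and 1277 CPM after microneedling, with changes of -0.32 and -0.14. Nfkb1 stood at 912.0, 794.0 and 1038 CPM, with changes of -0.20 and 0.19. Relb stood at 284.3, 204.5 and 277.2 CPM, with changes of -0.47 and -0.04, so its lowest level was after croton oil. Nfkb2 was far lower, at 44.2, 51.4 and 47.0 CPM, with changes of 0.19 and 0.08. Rela, the canonical partner that is not one of the 10 genes, was measured at 36.2, 45.4 and 41.8 CPM, so that Rel UMIs exceeded Rela UMIs in LCs of every library. UMIs count captured 3' ends and do not scale with transcript length, but genes can differ in how well their ends are captured.

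The LCs of croton oil and microneedle were also set against each other directly. None of the 10 genes differed by 2-fold, where 1.58% of 6640 genes were at least 2-fold higher after croton oil and 1.02% lower. The widest differences were those of Traf1, 0.80 (0.74 to 0.87), and of Nfkbia, 0.69 (0.67 to 0.70), both higher after croton oil. Relb and Nfkb1 were lower after croton oil, by log2 differences of -0.43 and -0.39. With the migratory cells outside the gate joined to the LCs, the Traf1 difference passed 2-fold, at 1.27.

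The split of subunit UMIs between the branches was similar in the LC pools of the 3 libraries. Nfkb2 and Relb together made up 12.4% (12.3 to 12.5) of the UMIs of Nfkb1, Rel, Nfkb2 and Relb in untreated LCs, 11.7% (11.6 to 11.9) after croton oil and 12.3% (12.2 to 12.4) after microneedling. Within the canonical pair, Rel exceeded Nfkb1 by a ratio of 1.55, 1.42 and 1.23. The ratio of Nfkbia UMIs to canonical subunit UMIs was 0.229 in untreated, 0.443 after croton oil and 0.227 after microneedling. The croton oil LCs thus carried more inhibitor message per subunit message than the other libraries did. Among Ccr7-positive LCs the noncanonical share was 14.7% (12.6 to 17.0) in untreated, 11.5% (11.0 to 12.0) after croton oil and 10.1% (9.39 to 10.8) after microneedling, against 12.4%, 11.8% and 12.3% in Ccr7-negative LCs. The noncanonical share was lower in migratory cells outside the gate, 9.92% (9.66 to 10.2) after croton oil and 8.88% (8.45 to 9.32) after microneedling, although both Nfkb2 and Relb were more abundant there. It was highest in neutrophils, 22.9% (18.8 to 27.4) and 20.9% (19.1 to 22.8), where Rel and Nfkb1 were low. Keratinocytes lay at 15.9% (14.8 to 17.1) in untreated, 11.9% (11.2 to 12.7) after croton oil and 14.1% (12.9 to 15.4) after microneedling.

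**Figure D2:**
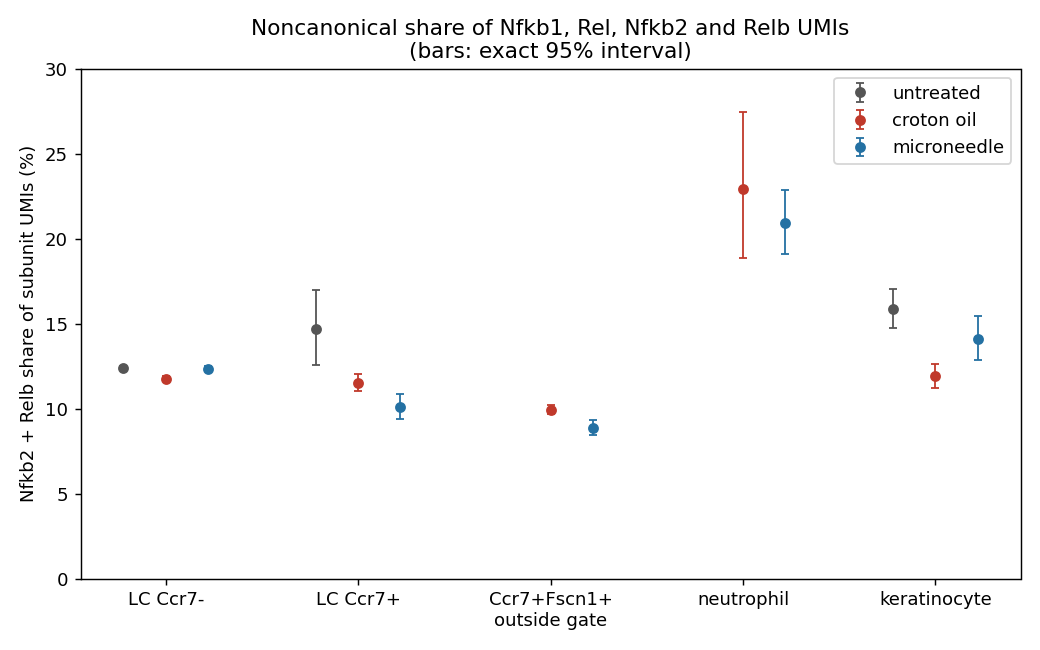
Nfkb2 and Relb UMIs as a percentage of the UMIs of Nfkb1, Rel, Nfkb2 and Relb in each cell pool (horizontal axis) and library (colour), with exact 95% binomial intervals of counting error. Ccr7-negative LCs lie between 11.8% and 12.4%, Ccr7-positive LCs at 14.7%, 11.5% and 10.1%, and migratory cells outside the gate between 8.88% and 9.92%. Neutrophils lie at 22.9% and 20.9%, and keratinocytes at 15.9%, 11.9% and 14.1%.

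Ccr7-positive LCs were compared with Ccr7-negative LCs of the same library. In the treated libraries Traf1 was the only one of the 10 genes past 2-fold. It stood at 256.5 CPM in Ccr7-positive and 32.4 CPM in Ccr7-negative LCs of croton oil, a log2 difference of 2.80, and at 167.7 and 21.0 CPM after microneedling, a difference of 2.73. The share of genes at least 2-fold higher was 2.81% of 6538 after croton oil and 3.14% of 6775 after microneedling, and 0.811% and 0.103% were lower. In untreated skin the 19 Ccr7-positive LCs held 76 Traf1 UMIs (237.0 CPM) against 4.62 CPM in the others, so Traf1 was high in the few Ccr7-positive cells of untreated skin as well. The untreated Ccr7-positive LCs also had Nfkb2 at 112.3 CPM against 44.0 CPM and Tnf at 274.4 CPM against 607.0 CPM, both past 2-fold. In the same comparison 8 of 14 immediate early and dissociation genes were lower by 2-fold, with a median of -1.01; their part in the Tnf level was not tested. That made 2 of 10 genes higher and 1 lower there, where 8.45% and 10.4% of 6981 genes were. In the treated libraries the subunit genes and Nfkbia were higher in Ccr7-positive LCs by less than 2-fold. After croton oil the log2 differences were 0.66 for Nfkb1, 0.76 for Rel, 0.59 for Nfkb2, 0.68 for Relb and 0.71 for Nfkbia. After microneedling they were 0.70 for Nfkb1, 0.64 for Rel, 0.74 for Nfkb2 and 0.57 for Nfkbia, and the smaller one of Relb, 0.25, turned to -0.04 when cells were thinned to 3000 UMIs. Nfkbie (0.09 and 0.12), Nfkbiz (0.24 and 0.44) and Tnfaip3 (0.34 and 0.59) differed less than Traf1 in both. The 7 T cell markers summed to 263.8 CPM in Ccr7-positive and 58.1 CPM in Ccr7-negative LCs after croton oil, and to 74.9 and 9.38 CPM after microneedling, with none of the 7 at 0. A cleaned set of LCs left out cells with any UMI of Cd3e, Cd3d, Cd3g, Trac or Trdc. It also left out cells above a set share of S100a8 and S100a9 UMIs or of keratin UMIs, and kept those below it. In this cleaned set the Traf1 difference was 2.87 after croton oil and 2.69 after microneedling. The median depth of Ccr7-positive LCs was 14579 and 20631 UMIs, against 12524 and 17312 UMIs in Ccr7-negative ones, and a deeper cell passes a threshold of 1 UMI more easily. Tnf had differences of -1.13 in untreated, -0.72 after croton oil and -0.16 after microneedling, of which the untreated one rests on 88 UMIs in the Ccr7-positive cells. In the cleaned set of LCs, the untreated Tnf difference was -0.97. With the gate genes at 4% of UMIs or more, the untreated differences fell short of 2-fold, at -0.54 for Tnf and 0.91 for Nfkb2. The result depends on how a Ccr7-positive cell is defined. When 2 Fscn1 UMIs were required beside 1 of Ccr7, only 76 croton oil and 11 microneedle cells remained as Ccr7-positive. The Tnf differences were then -1.73 and -0.96. Rel (1.11 and 1.12) and Nfkb1 (1.21 and 1.16) passed 2-fold in both treated libraries. Relb passed after croton oil (1.15) and Nfkb2 after microneedling (1.04). The small Tnf difference after microneedling turned to 0.10 with the MHC class II genes at 4% of UMIs or more.

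The migratory cells outside the gate differed from LCs in most of the 10 genes. Compared with Ccr7-negative LCs of their library, 6 of the 10 genes were at least 2-fold higher after croton oil (Nfkb1, Nfkb2, Rel, Relb, Nfkbia and Traf1), where 9.75% of 6788 genes were. After microneedling the same genes except Relb were higher, 5 of 10, where 11.5% of 6996 genes were. Lower genes made up 14.3% and 16.1% of those compared, and among the 10 Tnf alone was lower in both. Over the alternatives, 77 of 77 and 66 of 66 values of the called genes stayed past 2-fold. Of the other genes' values, 4 of 33 passed after croton oil and 1 of 44 after microneedling, so the counts can rise with the setting. Because these cells were picked by 2 genes of the same profile, the differences are given as a description of the pool.

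Tnf was low in them and Traf1 was at its highest. Tnf stood at 43.4 CPM (39.1 to 48.0) after croton oil and 44.1 CPM (36.1 to 53.5) after microneedling, against 273.5 and 264.9 CPM in Ccr7-negative LCs, with log2 differences of -2.52 and -2.46. Traf1 stood at 538.8 CPM (523.5 to 554.4) and 528.1 CPM (499.1 to 558.3), differences of 3.86 and 4.36. The libraries gave overlapping intervals for both genes in these cells. Nfkb1 reached 2737 and 2872 CPM, against 769.2 and 1027 CPM, and Rel reached 2478 and 3625 CPM, against 1087 and 1264 CPM. The noncanonical genes were higher as well: Relb stood at 460.5 and 503.9 CPM, against 197.7 and 276.3 CPM, and Nfkb2 at 113.8 and 129.0 CPM, against 49.8 and 46.4 CPM. Nfkbia stood at 2015 CPM after croton oil and 1212 CPM after microneedling, so the higher level after croton oil that was seen in LCs was present here too. Tnfaip3 (593.6 and 674.5 CPM) came close to 2-fold higher with differences of 0.99 and 0.94. Nfkbiz (210.4 and 352.3 CPM) had differences of 0.39 and 0.73, whereas Nfkbie (69.0 and 97.2 CPM) was the only inhibitor gene below its LC level, with differences of -0.53 and -0.12.

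**Figure D3:**
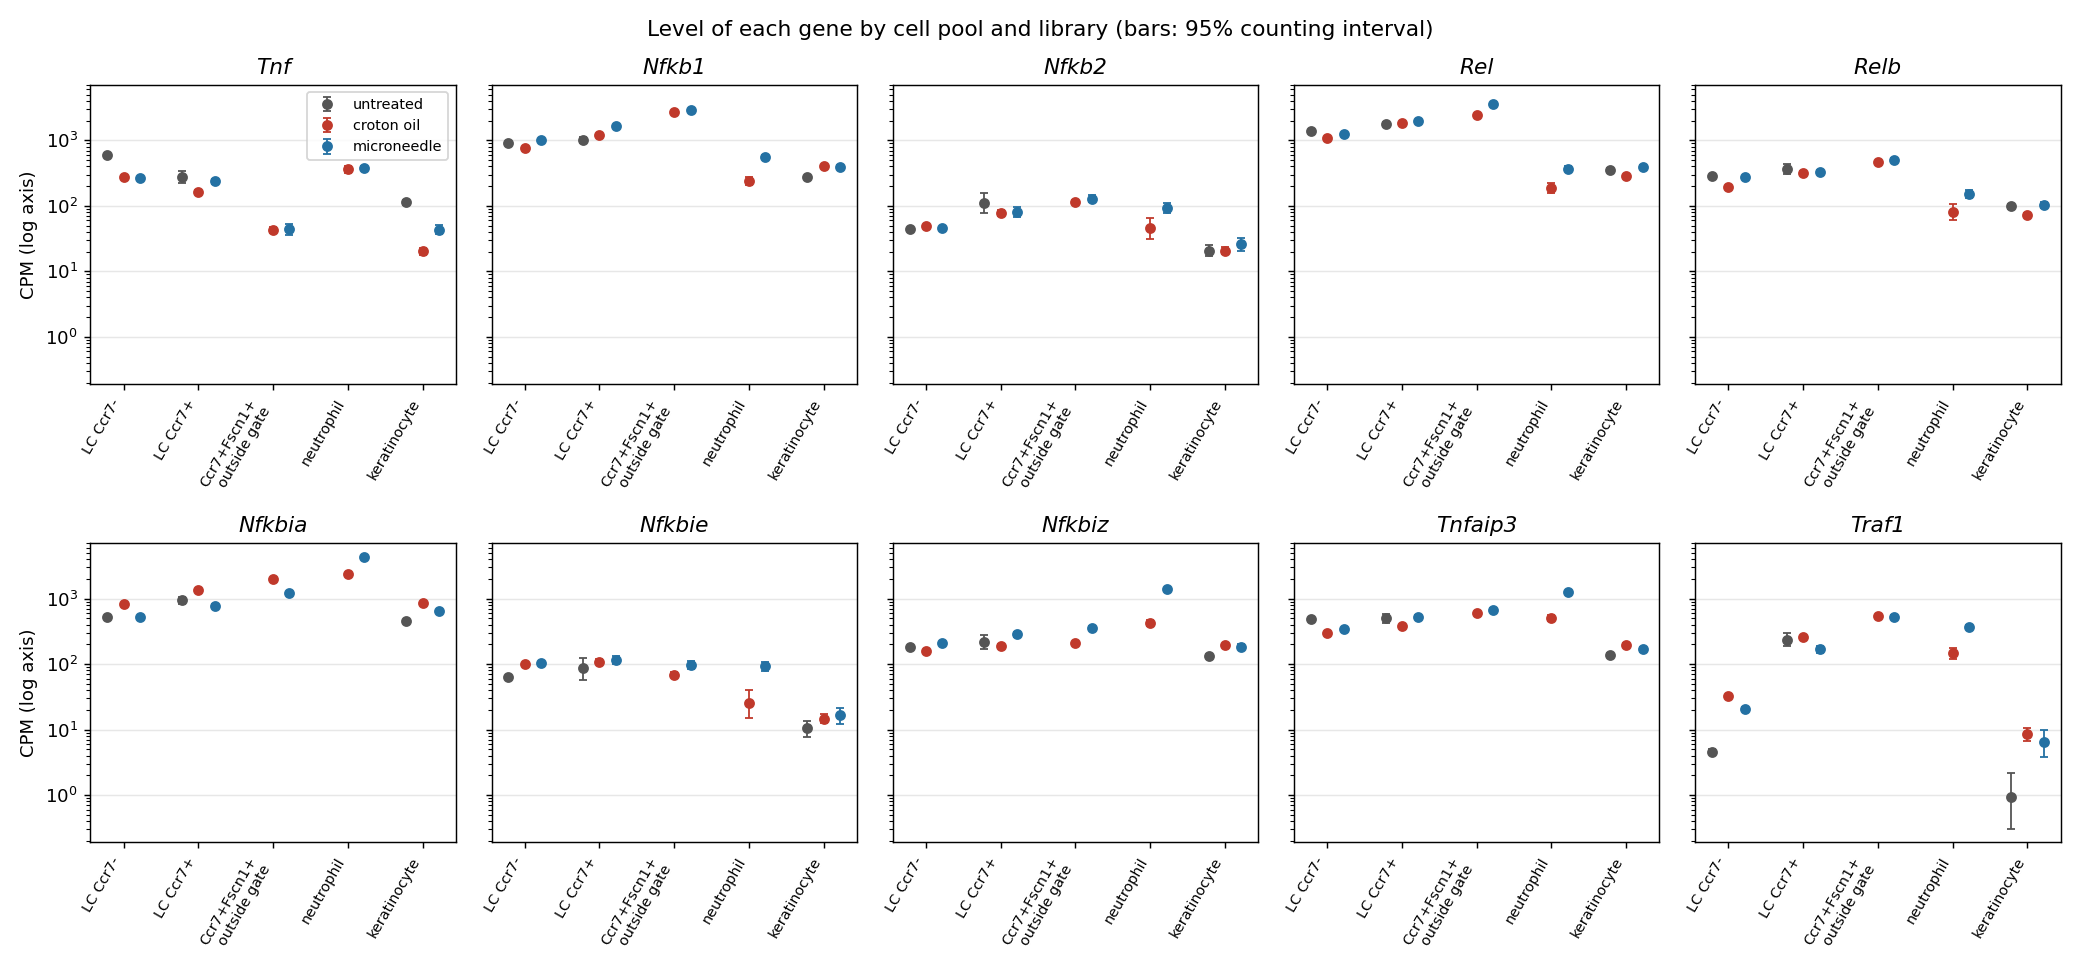
Level of each of the 10 genes in CPM (log axis) by cell pool and library: grey untreated, red croton oil, blue microneedle, with 95% counting intervals; pools under 15 cells are not drawn. Tnf is highest in untreated Ccr7-negative LCs and lowest in the migratory cells outside the gate and in keratinocytes of the treated libraries, Traf1 runs the other way among Ccr7-negative LCs, and Nfkbia is highest in neutrophils.

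Neutrophils, present in the treated libraries only, carried the circuit in another proportion. Their Tnf level was 361.9 CPM (318.6 to 409.3) after croton oil and 376.7 CPM (347.4 to 407.9) after microneedling, which is 135.3% and 142.5% of the level of the LCs beside them. Nfkbia was the most abundant of the 10 genes, at 2374 and 4256 CPM, and Nfkbiz stood at 427.6 and 1419 CPM. The third inhibitor gene, Nfkbie, was low, at 25.7 CPM after croton oil, the lowest of the 10 genes there, and 93.1 CPM after microneedling. Nfkbia, Nfkbiz and Traf1 were at least 2-fold above LCs in both libraries and Tnfaip3 after microneedling as well. These were 3 of 10 genes after croton oil, where 18.8% of 7274 genes were higher, and 4 of 10 after microneedling, where 19.8% of 7382 were. The lower genes numbered 4 after croton oil (Nfkb1, Rel, Relb and Nfkbie), where 41.5% of all genes were lower, and 1 after microneedling (Rel), where 43.2% were. Over the alternatives, 84 of 84 and 60 of 60 values of the called genes stayed past 2-fold. Of the other genes' values, 0 of 36 passed after croton oil and 5 of 60 after microneedling. Rel stood at 185.9 and 368.7 CPM in neutrophils and Nfkb2 at 45.8 and 93.1 CPM.

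The LC genes Cd207, H2-DMa and H2-DMb1 stood in neutrophils at 2.19% to 3.60% of their LC level after croton oil and at 2.75% to 4.41% after microneedling, whereas the lowest of the 10 genes in this respect, Rel, stood at 16.5% and 28.9%. In the other direction, S100a8 stood in LCs at 0.069% and 0.035% of its neutrophil level.

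**Figure D4:**
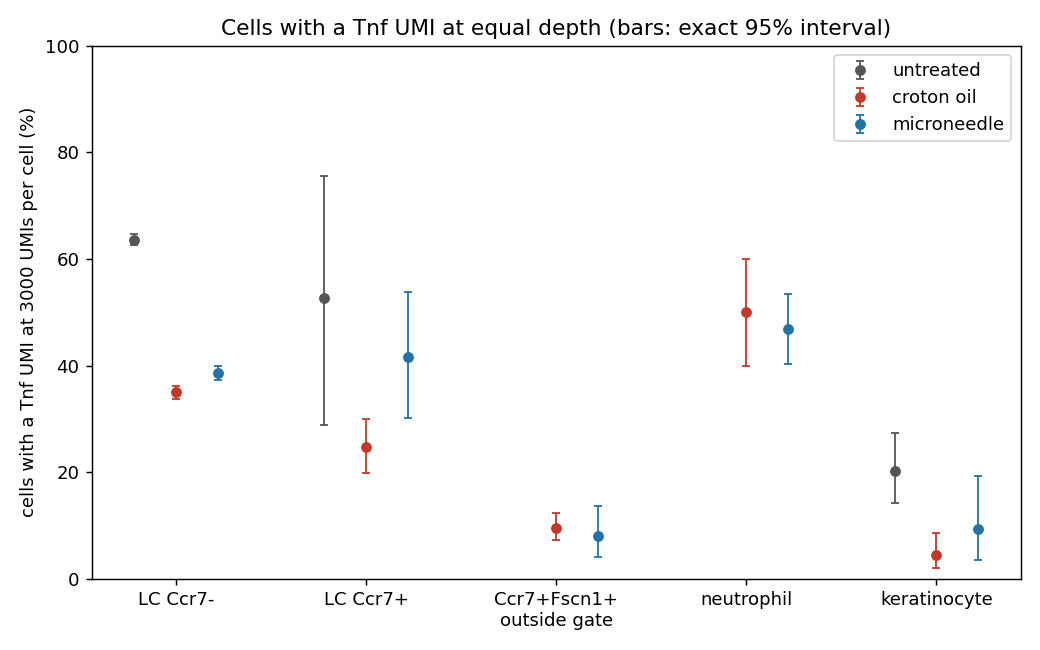
Percentage of cells with at least 1 Tnf UMI after each cell was thinned to 3000 UMIs, by pool and library, with exact 95% binomial intervals of counting error; pools under 15 cells are not drawn. Ccr7-negative LCs lie at 63.6%, 35.0% and 38.7%, Ccr7-positive LCs at 52.6%, 24.7% and 41.7%, neutrophils at 51 of 102 cells and 46.8%, and keratinocytes and migratory cells outside the gate at 20.1% or less.

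At equal depth the lower Tnf level went with fewer cells that had a Tnf UMI and with fewer UMIs in those cells. After thinning every cell to 3000 UMIs, 63.6% (62.6 to 64.6) of untreated, 34.5% (33.2 to 35.7) of croton oil and 38.7% (37.37 to 40.03) of microneedle LCs had a Tnf UMI. Unthinned, the shares were 86.8%, 64.8% and 72.2%. The cells that had one held a mean of 2.90, 2.24 and 2.17 Tnf UMIs at that depth. Cells with fewer than 3000 UMIs were left out, 102, 32 and 59 of the LCs. Neutrophils had a Tnf UMI in 51 of 102 cells (39.9% to 60.1%) and 46.8% (40.3 to 53.4), after leaving out 76 and 85 shallower ones. Migratory cells outside the gate had one in 9.53% (7.26 to 12.2) and 7.91% (4.02 to 13.7).

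Tnf UMIs were unevenly spread over LCs. Their variance over their mean at 3000 UMIs was 3.14 in untreated, 3.50 after croton oil and 2.90 in microneedle LCs, against 1.35, 2.42 and 1.78 for Cd207, whose mean level is of the same order. The 10% of LCs with the most Tnf held 40.4%, 60.5% and 55.5% of all Tnf UMIs, a share that rises by counting alone as the mean falls. The variance over the mean was 3.64 for Nfkbia after croton oil, against 1.88 in untreated and 2.26 after microneedling, and 4.47 for Nfkb1 after microneedling, against 2.79 and 3.04. This ratio can grow with the mean, and these genes had means of 2.63 and 3.0 UMIs where Tnf had 0.772 and 0.839, so the values are not ranked against Tnf. Nfkb2 lay at 1.03, 1.00 and 1.03, which is the value of counting error alone.

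Keratinocytes, the epithelial cells of the epidermis, gave low Tnf values, close to the proportion in which their pool held LC genes. Tnf stood at 113.8 CPM (104.9 to 123.3) in untreated, 20.1 CPM (17.5 to 23.1) after croton oil and 43.6 CPM (36.6 to 51.5) in microneedle keratinocytes. These are 18.8%, 7.53% and 16.5% of the LC level of the same library, beside 14.7% to 17.8%, 6.67% to 8.29% and 13.8% to 19.9% for the 3 LC genes. Tnf thus lay within the range of those genes in the treated libraries and just above it in the untreated one, and expression by keratinocytes cannot be told apart from RNA of LCs in these pools. Ptprc, the gene of a pan-leukocyte surface protein, had a UMI in 89 of 162, 74 of 201 and 29 of 77 of these cells. When keratinocytes needed at least 2% of UMIs from keratin genes and no Ptprc UMI, 57, 106 and 41 cells remained. Their Tnf level was 12.6, 5.78 and 3.40 CPM, from 22, 24 and 4 UMIs, which is 2.07%, 2.16% and 1.29% of the LC level. The log2 difference from LCs went from -2.36 to -5.12, from -3.44 to -4.66 and from -2.47 to -5.00. The LC genes were lower in them too, at 1.20% to 1.81%, 1.21% to 1.62% and 0.567% to 2.01% of their LC level, so that Tnf lay just above their range in the untreated and croton oil libraries and within it in the microneedle library. The parts of free RNA and of droplets with more than 1 cell in these levels were not tested. At 3000 UMIs, 20.1%, 4.40% and 9.38% of keratinocytes had a Tnf UMI, from median depths of 31465, 51573 and 37379 UMIs. None of the 10 genes was at least 2-fold higher in keratinocytes than in LCs, where 19.5% of 7816, 21.7% of 7731 and 20.8% of 7993 genes were in untreated, croton oil and microneedle. At least 2-fold lower were 6 of 9 compared, 6 of 10 and 7 of 10, where 20.4%, 20.9% and 18% of genes were. The calls of genes near 2-fold moved with the setting. Over the alternatives, 72 of 72, 71 of 72 and 81 of 84 values of the lower genes stayed past 2-fold. Of the other genes' values, 6, 4 and 2 passed. Under the stricter gate described above Nfkb2 (-1.86) and Nfkbiz (-1.49) in untreated, Nfkb1 (-1.46) after croton oil and Nfkb2 (-1.86) after microneedling passed. Among the lost calls after microneedling, Traf1 was at -0.84 when cells were thinned to 3000 UMIs and Tnfaip3 at -0.85 with the gate genes at 4%. Nfkbia and Nfkbiz came nearest to their LC levels. Nfkbia stood at 455.9, 845.4 and 638.6 CPM in keratinocytes, with log2 differences of -0.22, -0.01 and 0.28, so its highest level was again after croton oil. Nfkbiz stood at 134.7, 195.6 and 185.5 CPM there, with differences of -0.42, 0.27 and -0.18. In some alternative settings the Nfkbia difference changed sign in each library, and the Nfkbiz difference did so after microneedling. Rel (358.3, 286.6 and 393.6 CPM), Relb (98.3, 73.0 and 104.0 CPM) and Nfkbie (10.4, 14.6 and 16.5 CPM) were more than 2-fold below LCs in all 3 libraries. Nfkb1 stood at 272.9, 406.3 and 396.4 CPM, Nfkb2 at 20.8, 20.8 and 25.8 CPM and Tnfaip3 at 137.9, 198.5 and 169.3 CPM. Traf1 was at 0.947, 8.48 and 6.36 CPM, the first from 5 UMIs. Nfkbie in the untreated and microneedle libraries (16.3% and 15.6% of the LC level) and Traf1 in the untreated library (17.8%) also lay within the range of the LC genes, so the same limit holds for them.

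The order of Tnf levels over the pools of at least 15 cells put untreated LCs first, followed by the neutrophils of both treated libraries, whose intervals overlap. Next came the 19 Ccr7-positive LCs of untreated skin, at 274.4 CPM (220.1 to 338.1), the LCs of the treated libraries and the Ccr7-positive LCs after microneedling, at 237.3 CPM (214.6 to 261.8); the wide interval of the first overlaps the rest of this group and the croton oil neutrophils. Then followed the Ccr7-positive LCs after croton oil at 163.9 CPM (152.3 to 176.2) and the untreated keratinocytes. Last came the migratory cells outside the gate and the microneedle keratinocytes, whose intervals overlap, and the croton oil keratinocytes. Levels of 9915 genes were also compared over 10 pools of at least 50 cells. These were pools of Ccr7-negative and Ccr7-positive LCs, neutrophils and keratinocytes. The migratory cells outside the gate were not among them. Over these pools the genes that followed Tnf most closely were Trdmt1 (Pearson r = 0.98), Nfkbid (0.98), Hhex (0.97), Rnf185 (0.97) and Dok3 (0.97). Of the other 9 genes, Tnfaip3 (0.71) and Nfkb2 (0.67) came closest to Tnf. Relb was followed most closely by 4732471J01Rik (0.97), Zfp438 (0.97), Ranbp2 (0.97), Arf4 (0.97) and Nxpe4 (0.97), and Rel (0.96) and Nfkb1 (0.95) lay just behind. These are descriptions across genes; the pools share libraries and depth.

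LCs with and without a Tnf UMI at 3000 UMIs differed little in the other genes. None of the other genes compared differed by 2-fold, 8 in untreated, where Traf1 was under the filter, and 9 in each treated library. Of all genes, 0% of 6423 genes were higher in Tnf-positive LCs of untreated skin, 0.047% of 6387 after croton oil and 0.0154% of 6476 after microneedling. Nfkbia was higher in Tnf-positive LCs by log2 differences of 0.13 (0.08 to 0.18), 0.46 (0.42 to 0.51) and 0.45 (0.39 to 0.51). Nfkbiz was higher by 0.24, 0.33 and 0.44. After croton oil these were the widest differences of the 9 genes, and after microneedling Traf1 had a wider one, 0.57 (0.32 to 0.83), which was 0.27 when cells were thinned to a greater depth. Split instead by Cd207, the same differences were 0.13, 0.31 and 0.18 for Nfkbia and 0.07, 0.05 and 0.07 for Nfkbiz. Traf1 differed more by that split than any of the 9 genes by Tnf, with 1.00 (0.80 to 1.20) after croton oil, and 0.0939% of 6389 genes were past 2-fold there. Relb differed by 0.09 (0.02 to 0.16) in untreated, -0.06 (-0.16 to 0.04) after croton oil and 0.16 (0.07 to 0.24) after microneedling, so its counting interval excluded 0 in 2 libraries, without a common sign over all 3. The genes past 2-fold in Tnf-positive LCs were Ccl4 (1.19), Ccl3 (1.09) and Cxcl1 (1.09) after croton oil and Cxcl1 (1.03) after microneedling, all chemokine genes. A list of other NF-kB target genes differed by medians of 0.26, 0.27 and 0.38, against 0.04, 0.12 and -0.02 in the split by Cd207. The immediate early list differed by medians of 0.09, 0.03 and 0.10 in the split by Tnf. Egr1 (0.39, 0.48 and 0.47) and Ier2 (0.31, 0.38 and 0.53), both early response genes, differed by more than Nfkbia in untreated and microneedle LCs.

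The rest of the circuit was read from lists of related genes, whose counts stand beside the backgrounds of the LC comparisons given above, 5.48% of genes higher and 5.48% lower after croton oil, and 3.91% higher and 1.76% lower after microneedling. Of the TNF ligand handling and receptor list, 10 of 15 genes were compared in each treatment, and Birc3, which encodes a ubiquitin ligase of the receptor complex, was alone past 2-fold, falling from 722.2 to 337.3 CPM after croton oil (log2 change -1.09) against 554.8 CPM after microneedling. The list's median change was -0.19 and 0.003. Of the kinase complex and noncanonical list, 2 of 10 were higher after croton oil and 1 of 8 after microneedling, with medians of 0.52 and 0.43. Tnfrsf9, a costimulatory receptor, rose from 8.39 CPM to 507.0 CPM after croton oil (5.26) and to 74.0 CPM after microneedling (2.56). Ltb, a lymphotoxin chain, rose from 3.62 CPM to 55.0 CPM after croton oil (2.80) and stood at 5.66 CPM after microneedling. T cells are a known source of Ltb, and the T cell markers moved with it as given above. In the neutrophil pools Ltb stood at 239 CPM after croton oil and 152 CPM after microneedling. The part of either cell type in the Ltb level of LCs was not tested.

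Among 17 other subunit, inhibitor and brake genes, 1 of 16 was higher and 1 lower after croton oil and none of 15 passed after microneedling. Tnip1, which encodes a partner of Tnfaip3, fell from 234.3 to 100.4 CPM (-1.18), and Tnip3 rose from 6.79 to 20.9 CPM (1.14). Of the list of other NF-kB targets, 9 of 19 were higher and 1 lower after croton oil, and 5 of 15 were higher after microneedling, with median changes of 0.88 and 0.36. Il1b, an inflammatory cytokine gene, rose from 73.8 CPM to 691.4 CPM after croton oil (3.14) and 341.2 CPM after microneedling (2.14). Bcl2a1b, a survival gene, rose from 50.9 to 390.8 and 130.9 CPM (2.82 and 1.28). Of the chemokine genes, Cxcl1 rose from 19.6 to 123.6 and 60.8 CPM (2.39 and 1.42), Cxcl2 from 239.1 to 1232 and 643.3 CPM (2.34 and 1.41), and Ccl3 from 0.446 to 31.1 CPM after croton oil (2.73). Cd83, a gene of activated dendritic cells named here because it was the only lower one, fell from 1567 to 692.1 CPM after croton oil (-1.17). Tnf, Birc3, Tnip1 and Cd83 were lower in croton oil LCs while Il1b, Cxcl1, Cxcl2 and Tnfrsf9, targets of the same factors in textbook accounts, were higher.

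In the migratory cells outside the gate, of the kinase complex and noncanonical list, 7 of 10 were at least 2-fold above and 1 below Ccr7-negative LCs after croton oil, and 8 of 10 above and 0 below after microneedling. Of all genes, 9.75% and 11.5% were higher and 14.3% and 16.1% lower. The ligand handling and receptor list had 3 of 11 higher and 1 lower after croton oil, and 4 of 12 and 1 after microneedling. The other subunit, inhibitor and brake genes had 2 of 16 higher and 5 lower, and 3 of 16 and 4, and the other NF-kB targets 7 of 20 higher and 4 lower, and 10 of 18 and 2. The immediate early list had 0 of 14 higher in either library and 7 and 6 lower. Cd40, a receptor for T cell help, stood at 451.1 CPM against 67.8 CPM after croton oil (2.65) and at 834.1 CPM against 77.8 CPM after microneedling (3.34). Map3k14, the kinase that starts the noncanonical branch, stood at 732.3 against 347.0 CPM (1.07) and at 1053 against 353.1 CPM (1.56). Cd40 and Map3k14 were picked for mention after their values had been seen.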

How the data were processed

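The deposited values were whole-number UMI counts per gene and cell, not normalized, made by the authors in Cell Ranger, version 8.0.0 per the file headers, on build GRCm39, per the submitters' processing notes. Totals were 127666928, 119360952 and 117178809 UMIs in the untreated, croton oil and microneedle libraries, so counting error is small for abundant genes. PCR copies are collapsed in UMIs; intervals and limits cover counting error only.

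Cells needed at least 500 genes and at most 10% mitochondrial UMIs. Scrublet's automatic threshold (scanpy 1.11.5) marked 2, 0 and 0 cells and so had not worked; the highest-scoring cells were removed at 0.8% per 1000 cells instead (773, 532 and 376 cells). Counts were summed per pool and scaled to CPM (Python 3.11.15, numpy 2.4.6, pandas 2.3.3). Intervals of levels are exact Poisson, of shares exact binomial and of log2 changes normal approximations to counting error (scipy 1.17.1). Genes entered a comparison with at least 20 CPM in either pool, changes carry a pseudocount of 5 CPM, and 2-fold was the limit for calling a gene higher or lower. edgeR 4.0.16 (R 4.3.3) served only for TMM factors as an alternative scaling. The procedure was tested on simulated data. A keratinocyte had at least 1% of its UMIs from keratin genes, under 2% from the 4 gate genes and no Csf3r.

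All 10 genes are named for each kind of pool, though not for each library. Of each related list, up to 4 genes in each treatment with the largest change past 2-fold are named. The 5 closest companions of Tnf and of Relb are named too. The genes and lists were chosen with earlier results of these data known. The planned split of LCs on Cd74 could not be made, since every LC had Cd74 UMIs; Cd207 was used instead.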

Additional observations from a re-analysis of the deposited data

Results flagged for a closer look

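Of the 10 genes, Nfkb1, Nfkbia and Nfkbiz had changes of opposite sign in LCs of the treated libraries against the same untreated library, and the difference was not tested. Nfkb1 changed by -0.20 after croton oil and 0.19 after microneedling on the log2 scale. Nfkbia changed by 0.67 after croton oil and -0.017 after microneedling. Nfkbiz changed by -0.17 after croton oil and 0.21 after microneedling. None of these values reached 2-fold. Over the alternatives, Nfkbia after microneedling ranged from -0.07 to 0.03, so its sign was not fixed, and Nfkb1 after croton oil ranged from -0.24 to 0.11, the latter with the migratory cells outside the gate added to LCs. Nfkbiz kept its signs over these alternatives, from -0.21 to -0.07 after croton oil and from 0.16 to 0.26 after microneedling.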

How the results depend on the processing

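With 1 library per group, no spread between animals is known, and the intervals say nothing of it. No paired analysis was possible because each group has 1 library and the labels give no replicate numbers. Tnf and Traf1 stayed past 2-fold in LCs of both treatments in each of the 13 alternatives per treatment that change a gene value. The filter of 50 CPM in either pool removed Traf1 and so left 0 genes higher in both treatments. Values given as added after seeing the data are those with migratory cells joined to the LC gate, the split on Cd207, the pool outside the gate and the removal of shared barcodes.

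The Tnf change after croton oil was -1.20 with no doublet removal, -1.13 with the gate at 4% of UMIs, -1.21 without mitochondrial and ribosomal protein genes in the total, -1.20 as a mean of per-cell CPM, -1.24 at 3000 UMIs per cell, -1.28 with the migratory cells added and -1.07 under TMM. After microneedling it was -1.23 without those genes in the total, -1.14 as a per-cell mean, -1.12 at 3000 UMIs, -1.21 with the migratory cells added and -1.21 under TMM. The TMM factors moved all genes by 0.10 in LCs of croton oil and -0.03 in LCs of microneedle against untreated, by 0.14 between the treated libraries, by 0.11 and 0.20 for neutrophils and by -0.12 and -0.32 for keratinocytes of the treated libraries against LCs.

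The noncanonical share in untreated LCs was 12.2% with the gate at 4% and 12.2% with Rela added. After croton oil it was 11.5% with Cd207 required, 12.0% at 3000 UMIs, 11.3% with the migratory cells, 12.0% as a per-cell mean and 11.5% with Rela. After microneedling it was 12.0% with the gate at 4%, 12.5% at 3000 UMIs, 12.1% with the migratory cells and 12.1% with Rela. The share of LCs with a Tnf UMI was 47.4%, 23.6% and 25.7% at 1500 UMIs (untreated, croton oil, microneedle), 86.8%, 64.8% and 72.2% without thinning, and 41.0%, 16.03% and 18.03% when 2 UMIs were needed. The cause of these moves was not tested.

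In the comparisons of LCs between libraries, counts of all genes moved by more than 1.5 times only with the 50 CPM filter: 228 genes lower after croton oil and 67 after microneedling, and 69 higher and 45 lower after croton oil against microneedle. Between Ccr7-positive and Ccr7-negative LCs these counts depended on the definition of a Ccr7-positive cell and on other settings: the 590 higher and 723 lower genes in untreated ranged from 361 to 1034 and from 390 to 1520, the 184 higher and 53 lower genes after croton oil ranged from 124 to 447 and from 25 to 767, and the 213 and 7 after microneedling from 116 to 696 and from 3 to 672. Higher genes in keratinocytes and lower genes in neutrophils moved by more than 1.5 times with the 50 CPM filter, and lower genes in untreated keratinocytes did with the stricter keratinocyte gate (2651 genes).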

Other observations

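Of the other NF-kB targets, 7 of 19 were at least 2-fold higher and 0 lower in Ccr7-positive than in Ccr7-negative LCs after microneedling, where 3.14% of all genes were higher. The counts were 4 of 19 higher and 1 lower after croton oil and 9 of 17 higher and 0 lower in untreated, where 2.81% and 8.45% of all genes were higher. Among the 7 after microneedling were 2 genes of cytokine subunits, Il12b at 62.4 CPM against 0.084 CPM in Ccr7-negative LCs and Il23a at 38.1 against 7.12 CPM. In the migratory cells outside the gate, Ccl22, a chemokine gene of mature dendritic cells, stood at 1361 CPM after croton oil and 1650 CPM after microneedling, and Icam1, an adhesion gene, at 219.2 and 242.0 CPM. Zfp36l2, which encodes an RNA-binding protein that promotes decay of messages, stood at 38.9 and 32.7 CPM in these cells against 614.5 and 580.5 CPM in Ccr7-negative LCs. These genes were picked after their values had been seen.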
